A study of Mus musculus with 12 samples.

Results

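Cytosolic ribosomal proteins are the protein components of the ribosomes that translate nuclear-encoded mRNA in the cytoplasm. The genes were taken from the table of read counts by name, as protein-coding genes whose whole symbol is Rpl or Rps and a number, with at most 1 of the letters a, x, y or l and 1 further digit, or is Rplp0, Rplp1, Rplp2 or Rpsa. Symbols with other endings, such as the S6 kinases (Rps6k), Rpl36al, Rps27rt and those with a -ps suffix, are left out. This gave 83 of the 54532 genes. They were 31 of the small subunit, 43 of the large subunit, the 3 proteins of the P-stalk and 6 paralogs of standard proteins. Of these, 81 passed the filter on low counts and were tested. Rpl10l had no count in any library, and Rpl39l had 1 count in all 12 together.

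Total RNA was sequenced from the dorsal root ganglia, the sensory ganglia beside the spinal cord, of C57BL/6 mice. The 6 control libraries have the genotype CDH5-Cre, in which the promoter of an endothelial cadherin drives Cre recombinase. The 6 DAAO libraries have the genotype DAAO-TGCdh5; D-amino acid oxidase uses D-alanine as a substrate and makes hydrogen peroxide. Animals of both groups were given D-Alanine. For the DAAO group, Cre stands only in the sample names and not in the genotype field. The labels give no ages and do not tie libraries to separate animals, so p-values measure the spread between these samples, which may be technical.

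Ribosomal proteins are made in near-equal numbers, and their mRNAs are among the most abundant and most co-ordinated of the cell. Most of these mRNAs start with a cytosine followed by a run of pyrimidines, the terminal oligopyrimidine (TOP) motif, through which LARP1 and the mTOR pathway control their translation. The mouse genome also holds many processed pseudogenes, intronless copies of these mRNAs, and reads from a gene and its copy can be hard to tell apart.

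The starts of some of these genes are shown because the TOP motif is a trait of most of the family's mRNAs. RefSeq (GRCm38.p6) had start windows for 63 of the 83 genes, 75 windows in all. Each line runs 5′ to 3′ on the gene's strand, from 15 bases before the annotated start to 15 bases into the transcript, and capitals mark the longest run of C and T where it reaches 6 bases.
Rps6 (chr4:86857353-86857382, minus strand): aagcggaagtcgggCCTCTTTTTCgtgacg
Rps18 (chr17:33955651-33955680, minus strand): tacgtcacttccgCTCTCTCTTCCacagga
Rpl15 (chr14:18270972-18271001, minus strand): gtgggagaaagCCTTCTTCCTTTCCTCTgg
Rpl28 (chr7:4792950-4792979, plus strand): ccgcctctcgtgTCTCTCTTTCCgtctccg
Rpl35 (chr2:39005117-39005146, minus strand): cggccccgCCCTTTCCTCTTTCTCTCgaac
Rpl22l1 (chr3:28805493-28805522, plus strand): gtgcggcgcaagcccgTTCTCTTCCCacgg
Rpl3l (chr17:24727811-24727840, plus strand): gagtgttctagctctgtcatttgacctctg
Rpl7l1 (chr17:46782642-46782671, minus strand): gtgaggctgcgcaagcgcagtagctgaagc
These lines were picked as examples and do not give the family's usual run. Over the 75 windows the longest run had a median of 6 bases, against 4 over all RefSeq windows. The run spans the start site in Rps6 and reaches 18 bases in Rpl35. The paralogs differ: Rpl22l1 has a run of 10 pyrimidines, whereas the longest runs of Rpl3l and Rpl7l1 are 5 and 2 bases.

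A run of at least 6 pyrimidines occurred in 39 of the 75 windows (52.0%), against 29.2% of all 32851 RefSeq windows of the same length. Over the full 300 bases from 250 before to 50 after the start, CCGGAAG, searched on both strands, occurred in 27 of 75 (36.0%) against 8.86% of all. AAGATGGC, on both strands, occurred in 8 of 75 (10.7%) against 2.75%, and TATAAA, on both strands, in 7 of 75 (9.33%) against 13.6%. These are counts of letters in the windows, with some genes entering by several annotated starts, and say nothing of which factors bind there.

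The ganglia held their defining neuronal transcripts in every library: summed over 8 sensory neuron markers, the level ran from 6424 to 13621 CPM (read counts relative to each library's scaled total). Libraries held between 13227518 and 23884927 counts. Skeletal muscle markers (6 genes) summed to between 10.1 and 2181 CPM in the controls and between 3.70 and 361 CPM in the DAAO libraries, and Control 2 stood apart in its markers of myelinating Schwann cells (21409 CPM against at most 9354 elsewhere) and of oligodendrocytes (2189 CPM against at most 602). Of the 21409 CPM, 13170 were of a single gene, Mbp.

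No ribosomal protein gene passed the test between DAAO and control ganglia. With edgeR's quasi-likelihood test and Benjamini-Hochberg adjustment over the 17002 genes tested, 0 of 81 passed an adjusted p of 0.05, and 0 had an unadjusted p under 0.05. DESeq2 and limma-voom also called 0. Of all genes tested, 128 (0.753%) were called, 0.506% higher and 0.247% lower, and 10.3% had an unadjusted p under 0.05. The smallest p of a ribosomal protein gene was 0.0845, that of Rplp0. In bulk tissue, fewer cells of a type and less RNA per cell cannot be told apart.

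The genes leaned slightly upward: 58 of 81 (71.6%) had a log2 fold change (DAAO minus control) above 0, against 50.4% of all genes tested, and their median was 0.075 against 0.002. This lean turned with single libraries, since the median was -0.044 without Control 4, -0.02 without DAAO 3 and 0.284 without Control 2. In none of the 81 genes were the groups apart, where they were in 1.45% of all genes. The 81 genes share libraries and move together, so they are not 81 separate observations.

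The intervals show which sizes of change remain possible. All 81 of the 95% intervals held 0. The interval lay within 1 log2 unit either way for 72 genes, and within a 1.5-fold change either way for 33. The median SE was 0.249, against 0.138 for the 4581 genes at a mean of 50 CPM or more. The SE carries the spread between libraries, and those genes were not matched to the members in level.

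**Figure D1:**
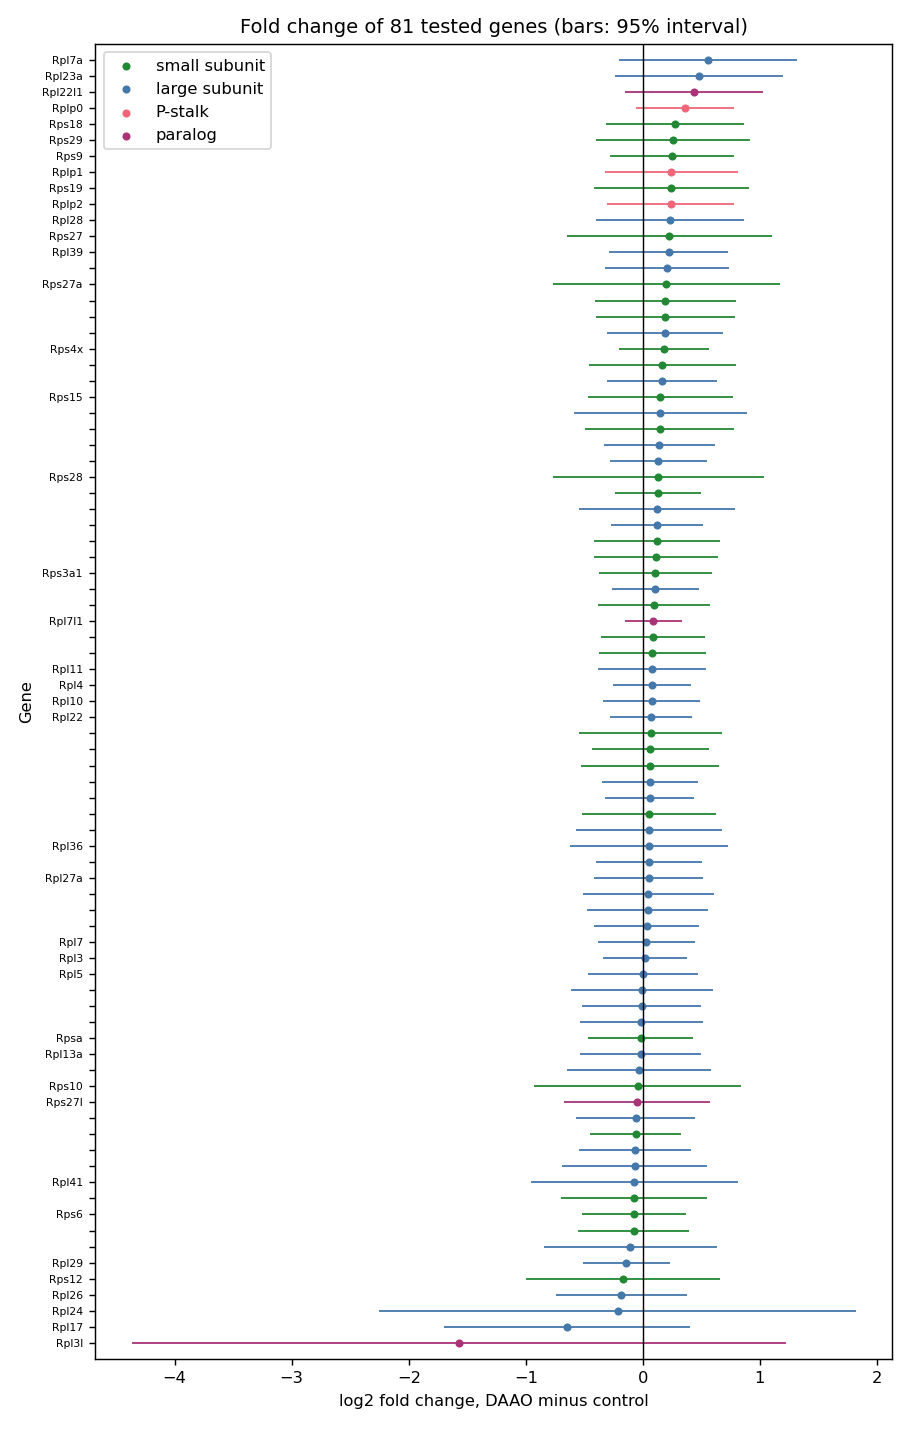
Log2 fold change (x axis, DAAO minus control) of the 81 tested ribosomal protein genes (y axis, with a subset named), coloured by class, with bars for the 95% interval from 6 libraries a group. All 81 bars cross 0, most points lie within 0.25 of it, and the widest bars belong to the sparsely counted Rpl3l and Rpl24.

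Most of the family moved together between libraries. Summed over the 83 genes, ribosomal proteins took 1.63, 3.36, 2.06, 1.07, 1.83 and 2.18% of the counts of Controls 1 to 6. They took 1.98, 2.39, 2.98, 1.57, 1.94 and 2.44% in DAAO 1 to 6. The means were 2.02% ± 0.762 (SD, n = 6) in controls and 2.22% ± 0.493 (SD, n = 6) in DAAO. Both the highest and the lowest library were controls, Control 2 and Control 4, and all DAAO values lay between them.

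**Figure D2:**
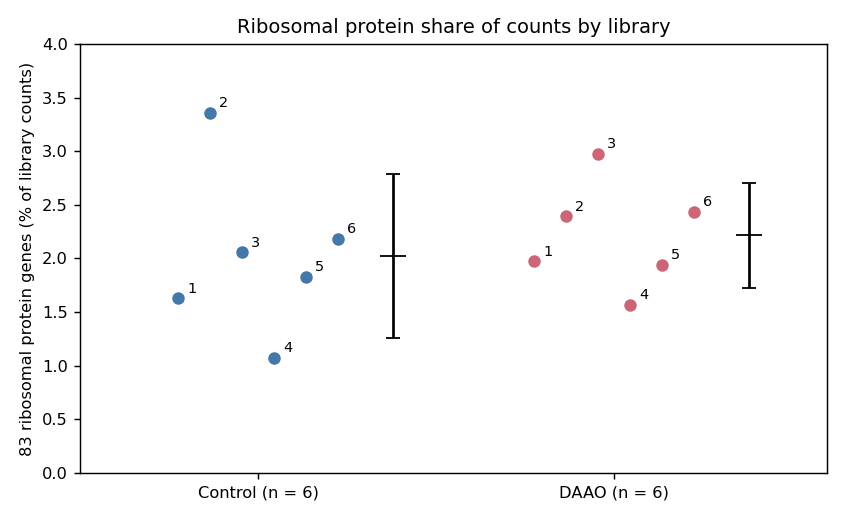
Ribosomal protein share of each library's counts (y axis, percent) in control and DAAO libraries, 1 point a library with its replicate number and, beside them, the mean and SD. Controls 2 (3.36%) and 4 (1.07%) are the extremes, and the DAAO libraries lie between 1.57 and 2.98%.

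Most genes followed this order. Among the 73 standard genes (paralogs set aside) at a mean of 50 CPM or more, 67 were highest in Control 2 and the other 6 in DAAO 3, while 68 were lowest in Control 4. The highest library exceeded the lowest by a median of 3.44-fold, from 1.80-fold to 7.75-fold. The first principal component held 84.4% of their variance over libraries, against 20.6% for all genes tested. The SD over controls was larger than over DAAO libraries in 71 of 73, with a median coefficient of variation of 42.3% in controls and 22.7% in DAAO.

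**Figure D3:**
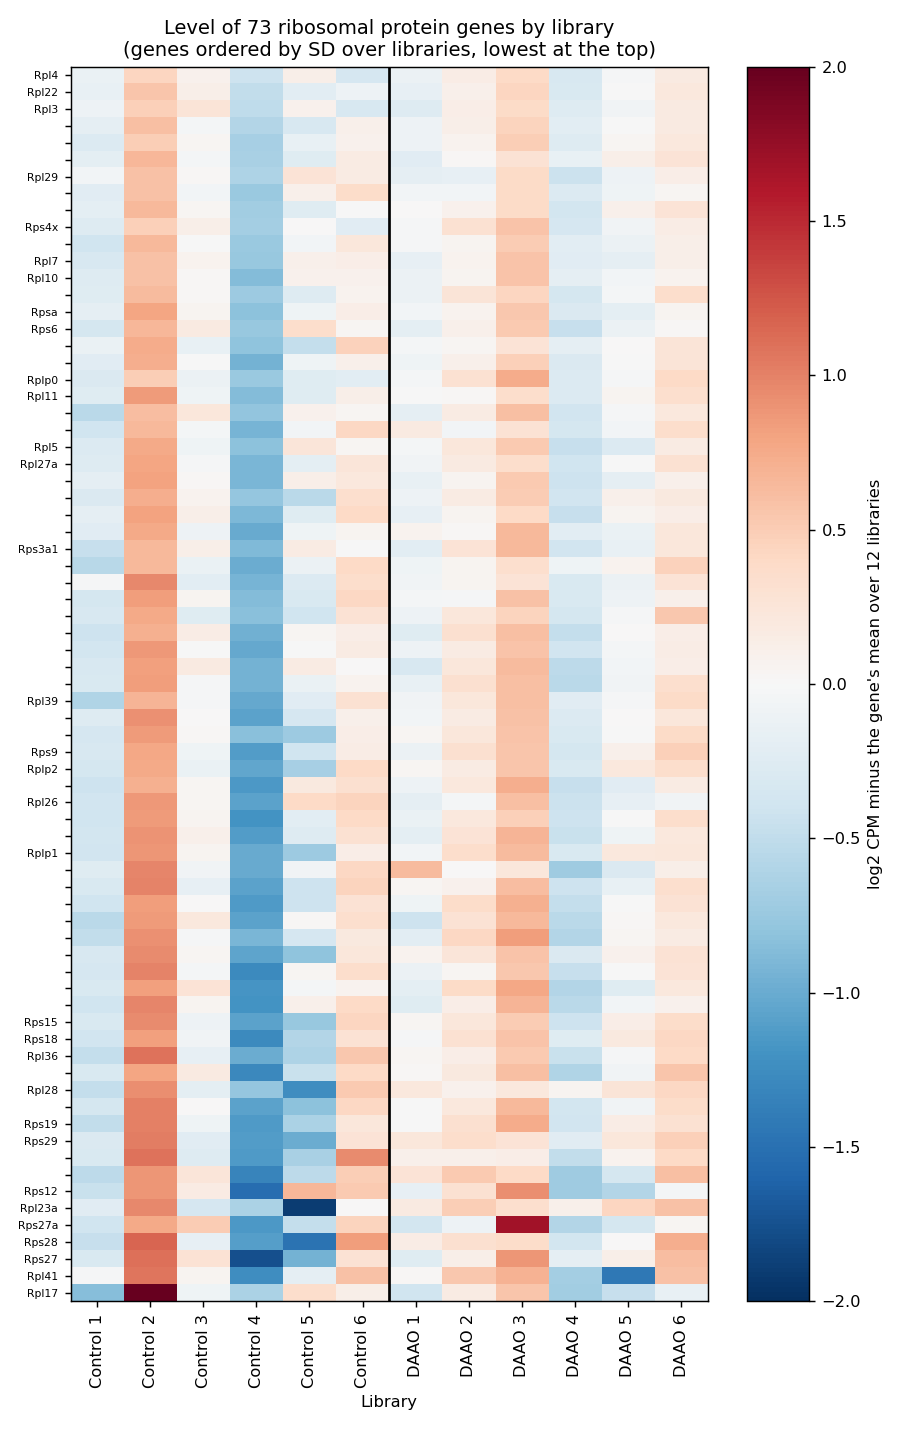
Level of each of 73 ribosomal protein genes (rows, with a subset named) in each library (columns), as log2 CPM minus the gene's own mean over 12 libraries, red above and blue below. Nearly every row is red in Control 2 and DAAO 3 and blue in Control 4 and DAAO 4, with departures in single cells such as Rpl17 in Control 2 and Rps27a in DAAO 3.

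For most of the 73 genes the spread was smaller once the family's mean level was subtracted in each library. The median SD of a gene over libraries was 0.487 log2 units before and 0.176 after this step, whereas all genes at 50 CPM or more had a median SD of 0.252, with no mean subtracted. The relative level had an SD under 0.2 in 53 of 73 genes, and was 0.067 in Rpl27a, a large subunit protein, the smallest of the 73. Rpl3 (0.304 before, 0.291 after) and Rpl4 (0.276 before, 0.297 after) were hardly changed by it. No relative level set the groups apart. The summed small subunit stood at 0.748 to 0.861 of the summed large subunit in controls and at 0.793 to 0.907 in DAAO, which overlap.

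The swing was larger for genes with short coding sequences. The median SD over libraries was 0.608 for the 9 genes with up to 300 coding bases, 0.535 for 26 genes of over 300 to 450, 0.518 for 16 genes of over 450 to 600, and 0.392 for 22 longer genes. Rpl4 (1260 bases) and Rpl3 (1212 bases), the 2 longest, had SDs of 0.276 and 0.304, against 0.781 for Rps27 (255 bases). Across the 73 genes Spearman's rho of coding length with SD was -0.579. The genes share the 12 libraries, so this is a description.

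Other short genes moved in the same libraries. The mean level of 66 other protein-coding genes with gene models of at most 1000 bases stood 0.64 log2 units above its average in Control 2 and 0.48 above in Control 6. It stood 0.53 below in Control 4 and 0.38 below in Control 5. The 2935 genes with models of at least 4000 bases stood at -0.24 in Control 2 and 0.14 in Control 4. In the DAAO libraries the short genes stayed between -0.15 and 0.15. The part of transcript length or RNA quality in the ribosomal protein levels was not tested.

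**Figure D4:**
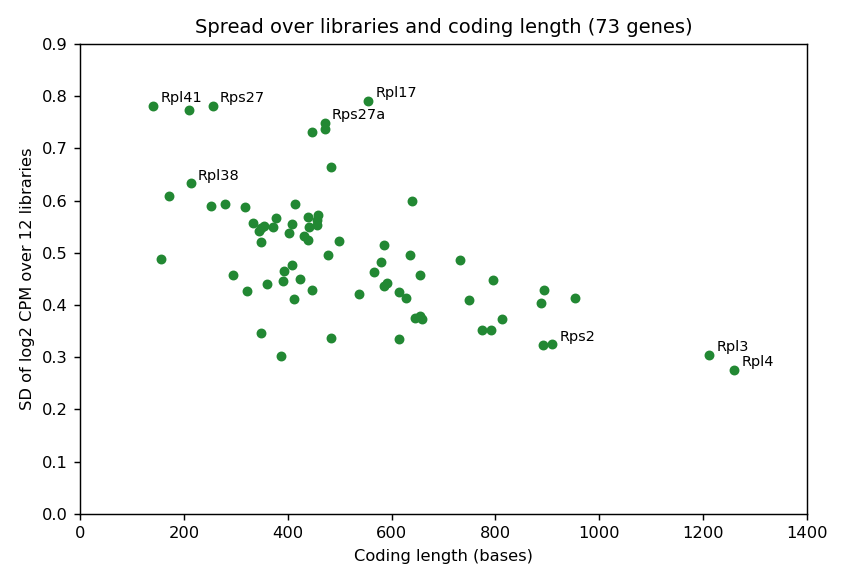
SD of log2 CPM over the 12 libraries (y axis) against coding length in bases (x axis) for 73 ribosomal protein genes, 1 point a gene. The longest coding sequences, Rpl3 and Rpl4, have the smallest SDs of the labelled genes (0.304 and 0.276), and Rpl41, Rps27 and Rpl17 the highest.

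Markers of some other cell types differed between the same libraries. Fibroblast markers (5 genes) summed to 632 to 2999 CPM in controls and 1445 to 3331 in DAAO, with 2999 in Control 2, 3331 in DAAO 3 and 632 in Control 4. Red blood cell markers (5 genes) summed to 524, 397 and 49.7 CPM in the same 3 libraries, within 49.7 to 524 in controls and 78.7 to 397 in DAAO. Macrophage markers (6 genes) summed to 186, 297 and 21.5 CPM there, within 21.5 to 186 in controls and 80.5 to 297 in DAAO. Control 6 did not follow, with a ribosomal protein share of 2.18% but 1001 CPM of fibroblast and 59.7 CPM of macrophage markers.

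Other cell types took another order. Endothelial markers (5 genes) summed to 86.4, 70.0 and 88.3 CPM in Control 2, DAAO 3 and Control 4, and sensory neuron markers to 8536, 7088 and 11357 CPM. Muscle markers were highest in Control 4, at 2181 CPM. The part of these cell types in the ribosomal protein levels was not tested.

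Among the stalk proteins, which recruit the translation factors to the ribosome, Rplp0, the scaffold of the stalk, had 484.6, 828.2, 544.5, 350.8, 498.4 and 507.2 CPM in Controls 1 to 6. It had 574.8, 725.8, 989.8, 485.9, 582.9 and 774.3 CPM in DAAO 1 to 6. Control 2 lay above 5 of the 6 DAAO libraries, so the groups overlapped. The log2 fold change was 0.36 (SE 0.20, edgeR adjusted p = 0.569). Rplp1 and Rplp2, the acidic proteins that dimerise on Rplp0, had log2 fold changes of 0.24 (SE 0.27) and 0.24 (SE 0.25). Per kilobase of gene model, Rplp1 was the most abundant member at 1275 CPM, followed by Rps3a1 at 558, Rps15 at 517 and Rpl36 at 436. The median over tested members was 132 CPM per kilobase, and the lowest were Rpl24 (0.574), Rps10 (0.976), Rpl3l (1.05) and Rpl13a (12.4), of which 3 are uncertain for reasons of counting given with the copies.

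In the small subunit, 24 of 31 genes had a log2 fold change above 0, with a median of 0.116 and a range of -0.17 to 0.28. Rps18 and Rps9 had the smallest p of the subunit. Rps9 ranged from 173.5 to 643.5 CPM (median 326.6) in controls and from 295.1 to 547.7 (median 436.3) in DAAO, with a log2 fold change of 0.25 (SE 0.25, edgeR adjusted p = 0.829). Rps6, the substrate of the S6 kinases, had 486.5 ± 160.9 CPM in controls and 460.8 ± 110.4 in DAAO (SD, n = 6 each). Rps19, the gene most often mutated in Diamond-Blackfan anaemia, had 193.8 ± 110.2 and 229.2 ± 59.8 CPM, and Rpsa, also known as the laminin receptor, 645.1 ± 239.3 and 637.3 ± 139.1 CPM. For these genes the difference in means was smaller than the SD of either group.

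In the large subunit, 29 of 43 were above 0, with a median of 0.052 and a range of -0.65 to 0.56. Rpl5 and Rpl11, which with 5S ribosomal RNA bind and inhibit Mdm2 when ribosome assembly is disturbed, had log2 fold changes of 0.003 (SE 0.22) and 0.079 (SE 0.22). Trp53, the p53 gene that Mdm2 restrains, had 21.2 ± 3.56 CPM in controls and 27.02 ± 3.72 in DAAO (SD, n = 6 each), a log2 fold change of 0.35 (SE 0.15) with an edgeR adjusted p of 0.398. Rpl3, near the peptidyl transferase centre, and Rpl10, near the tRNA sites, had log2 fold changes of 0.018 (SE 0.17) and 0.075 (SE 0.20).

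A few genes left the family's pattern in 1 library. Rps27a, which encodes ubiquitin fused to a small subunit protein, reached 359.7 CPM in DAAO 3 against 74.8 to 115.5 in the other 5 DAAO libraries. Rpl7a reached 125.7 CPM in DAAO 2 against 26.9 to 62.5 in the others. Rpl23a had 27.4 CPM in Control 5, where the other controls had 65.7 to 199.0. Rpl41, the shortest ribosomal protein, had 151.8 CPM in DAAO 5 against 254.8 to 665.2 elsewhere in that group. In Control 5 a set of genes stood below the family's mean by over 0.6 log2 units, among them Rps28 (-1.21), Rpl28 (-0.98), Rps29 (-0.73) and Rps27 (-0.68). For some of these genes the split of counts between gene and copies differed in the same library. The gene's own share of the counts on gene and near-identical copies (described further on) was 96.99% for Rps27a in DAAO 3 against 80.25 to 92.83% in the other libraries, 80.4% for Rpl7a in DAAO 2 against 42.8 to 68.5%, and 35.2% for Rpl23a in Control 5 against 55.7 to 67.7% elsewhere. For Rps27 it was 37.7% in Control 5 against 43.8 to 92.8% elsewhere. None of these genes was called: the log2 fold changes of Rpl7a and Rpl23a, the largest above 0, were 0.56 (SE 0.35, edgeR adjusted p = 0.648) and 0.48 (SE 0.33, edgeR adjusted p = 0.693).

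Of the 6 paralogs, 4 had enough counts to be tested, and none was called. Rpl22l1, the counterpart of Rpl22, had 19.7, 46.6, 31.9, 12.2, 27.2 and 33.7 CPM in Controls 1 to 6. It had 30.5, 48.1, 54.1, 22.5, 42.9 and 33.9 CPM in DAAO 1 to 6. The groups overlapped, with a log2 fold change of 0.44 (SE 0.28, edgeR adjusted p = 0.642). Its level was 16.8% ± 4.20 of that of Rpl22 in controls and 21.99% ± 4.28 in DAAO (SD, n = 6 each, CPM not corrected for length). Rpl7l1 was the steadiest member, at 49.5 ± 5.62 and 52.7 ± 6.25 CPM, with a 1.35-fold span over all libraries. Rps27l, a target of p53, had 61.3 ± 24.9 and 59.0 ± 19.5 CPM. Rps4l, a copy of Rps4x that the table lists as a pseudogene and that is therefore not among the 83, had 43.3 ± 17.4 and 42.5 ± 5.13 CPM.

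Rpl3l, the form of Rpl3 made in heart and skeletal muscle, had 1.05, 2.75, 0, 8.89, 2.78 and 0 CPM in Controls 1 to 6 and 0.127, 1.28, 3.14, 0, 0 and 0.670 CPM in DAAO 1 to 6. It was highest in Control 4, where the muscle markers were highest too. Acta1, skeletal muscle actin, had 728.8 CPM in Control 4 and 295.0 in Control 5, against 7.43 in Control 1 and 4.32 in Control 6. The log2 fold change of Rpl3l was -1.57 (SE 1.30, edgeR adjusted p = 0.768). Muscle RNA moved with Rpl3l. With the muscle marker level as a covariate, 0 of 81 members were called, 1 had an unadjusted p under 0.05 and their median log2 fold change was 0.11. The part of muscle RNA in the level of Rpl3l itself was not tested.

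Copies of the coding sequences took a visible share of the counts. Coding sequences were matched to all transcripts of GENCODE M21 (GRCm38), and 542 genes in the table matched a member at 95% identity or more over at least 80% of its coding bases, with 400 of them holding counts. Of the 83 members, 73 had at least 1 such copy, with a median of 5 and 54 for Rpl21, and 22 had one identical over the matched bases. For Rps10 and Rpl24 the identical match was no separate copy. It was a gene model that overlaps the gene itself (RPS10-NUDT3 and Gm28037, at 0 counts). The copies held 420583 counts against 4658217 on the members, 8.28% of the sum, and over 10% of the joint counts for 19 members. Pseudogenes that the table itself names or describes as ribosomal protein copies came to 5.27% ± 0.464 of the members' counts in controls and 5.25% ± 0.190 in DAAO (SD, n = 6 each). Of the 63 of these tested, 0 were called, with 1 at an unadjusted p under 0.05.

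The following 3 pairs of coding stretches show how close a gene and its most counted copy are. Capitals mark the bases that differ, and each stretch of 60 bases is given on the gene's strand in GRCm38.
Rps7 (chr12:28635595-28635654, minus strand): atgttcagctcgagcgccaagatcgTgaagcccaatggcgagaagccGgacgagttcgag
Gm6472 (chrX:152910061-152910120, minus strand): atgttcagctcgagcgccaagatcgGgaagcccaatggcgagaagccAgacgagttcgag
Rpl23a (chr11:78182867-78182926, minus strand): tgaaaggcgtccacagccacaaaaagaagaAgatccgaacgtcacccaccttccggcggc
Rpl23a-ps3 (chr14:34170740-34170799, plus strand): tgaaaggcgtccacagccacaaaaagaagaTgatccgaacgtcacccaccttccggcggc
Rps10 (chr17:27632279-27632338, minus strand): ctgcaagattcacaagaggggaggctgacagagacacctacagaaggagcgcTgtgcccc
Rps10-ps2 (chr16:20822241-20822300, minus strand): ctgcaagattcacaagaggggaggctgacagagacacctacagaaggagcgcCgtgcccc
Rps7 and Gm6472 differ at 2 of these 60 bases and at 3 of 585 in all, and the copy held 18043 counts against 62962. Rpl23a and Rpl23a-ps3 differ at 1 of 468 aligned bases, with 6751 counts against 24827. Rps10 and Rps10-ps2 differ at 1 of the 60 bases shown and at 32 of 496 aligned without gaps, 30 of them in the last 60 aligned bases. The coding sequence used for Rps10 was the longest one found, of 510 bases. Another copy, Rps10-ps1, matched over the same 89.4% of it as Rps10-ps2. The part of the chosen transcript in these last differences was not tested.

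Rps10, Rpl24 and Rpl17 had more counts on their copies than on themselves. Rps10 had 497 counts, 2.29 ± 0.796 CPM in controls and 2.22 ± 0.891 in DAAO, whereas Rps10-ps2, at 99.12% identity over the 89.4% of the coding bases that match, had 18091. Rpl24 had 118 counts and its copies 870. Both genes overlap, on the same strand, a gene model listed at 0 counts: RPS10-NUDT3 covers 89.41% of the coding bases of Rps10, and Gm28037 covers 82.91% of those of Rpl24. Rpl13a, at 5777 counts, is covered over 97.55% by Gm45713, also at 0. Their levels in the table are therefore uncertain, and the part of the overlaps was not tested.

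**Figure D5:**
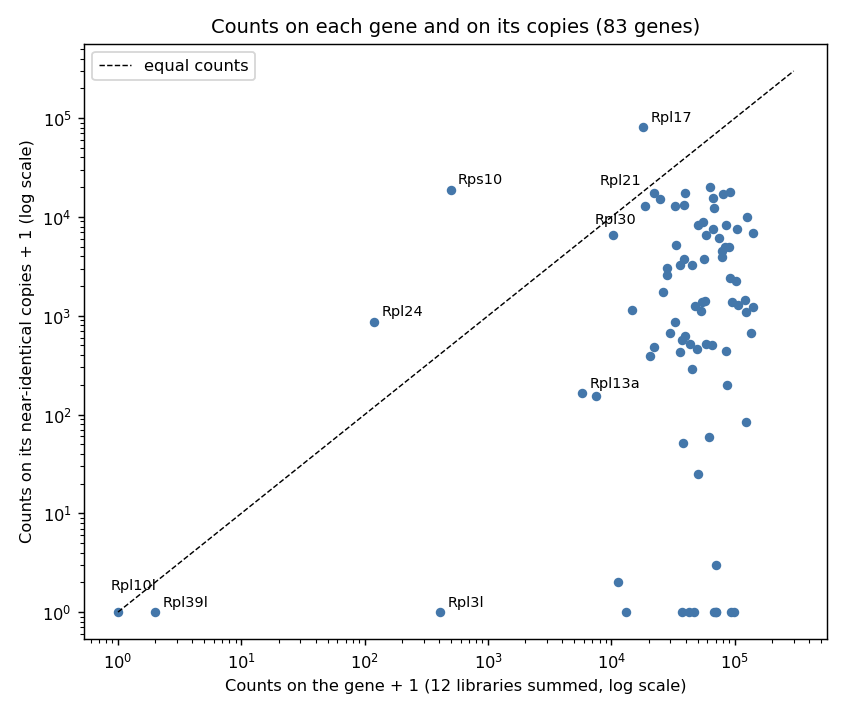
Counts summed over 12 libraries on each of the 83 ribosomal protein genes (x axis) and on its near-identical copies (y axis), both plus 1 on log scales, with a dashed line at equal counts. Rps10, Rpl24 and Rpl17 lie above the line, and Rpl10l, at 0 counts on both, lies on it.

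For Rpl17, on chromosome 18, the copies changed the picture. The gene had 37.9, 293.5, 64.7, 44.0, 87.6 and 74.2 CPM in Controls 1 to 6 and 51.9, 76.9, 100.7, 42.5, 49.8 and 62.2 CPM in DAAO 1 to 6. Control 2 stood far above DAAO 3, the next library, and the other 10 ran from 37.9 to 87.6 CPM. The log2 fold change was -0.65 (SE 0.48, edgeR adjusted p = 0.724), the lowest of the standard proteins, and 0.058 without Control 2. The gene's own share of the counts on gene and copies was 35.7% in Control 2, 24.1% in Control 4 and 12.97 to 15.6% in the other 10 libraries. With the copies added, the log2 fold change was -0.11 (adjusted p = 0.961). Rps27 gave a similar case, with an identical protein-coding copy, Rps27rt, at 12944 counts: its share was 37.7% in Control 5, 43.8% in Control 4 and up to 92.8% in DAAO 5.

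The wider machinery of ribosome production moved less than the ribosomal proteins themselves. The mean level of 43 tested assembly and nucleolar genes had an SD of 0.091 over libraries, that of 15 genes of RNA polymerase I transcription 0.095, that of 28 initiation factors 0.096 and that of 22 regulators such as Mtor and Larp1 0.090. The same value was 0.442 for the ribosomal proteins, 0.450 for their pseudogenes, 0.450 for snoRNA host genes (11 tested, among them Gas5, and also Rpsa, Rps12 and Rpl13a, which are members) and 0.249 for 22 other TOP transcripts. Of these lists, 0 genes were called. Their median log2 fold changes were 0.040 for assembly, 0.054 for RNA polymerase I, -0.012 for initiation, 0.013 for the regulators, 0.053 for the other TOP transcripts and 0.146 for the snoRNA hosts. Of the assembly genes, Gar1, a protein of the particles that modify uridines in ribosomal RNA, had 7.60 ± 2.04 CPM in controls and 10.24 ± 1.87 in DAAO (SD, n = 6 each; log2 fold change 0.43, edgeR adjusted p = 0.497).

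Some single genes of this machinery had an unadjusted p under 0.05 and an adjusted p far above 0.05. Ubtf, an activator of ribosomal RNA transcription, had 92.3 ± 14.3 CPM in controls and 110.5 ± 4.75 in DAAO (SD, n = 6 each; log2 fold change 0.26, edgeR adjusted p = 0.435). Rrn3, which brings RNA polymerase I to the promoter, had 81.9 ± 12.9 and 68.1 ± 6.32 CPM (log2 fold change -0.27, edgeR adjusted p = 0.47). Eif4a2, an RNA helicase of translation initiation, had 1177 ± 239 and 938 ± 106 CPM (log2 fold change -0.33, edgeR adjusted p = 0.46). Eif5a2, an elongation factor, had 284.6 ± 83.9 and 210.6 ± 21.02 CPM (-0.43, edgeR adjusted p = 0.387). The ribosomal components Rack1 and Fau, which the name rule leaves out, had log2 fold changes of 0.18 and -0.023.

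Mitochondrial ribosomal proteins, made in the cytosol for a separate ribosome, differed in the side they took. Of 77 tested, 58 had a log2 fold change below 0, with a median of -0.10, against 23 of 81 cytosolic genes below 0 and a median of 0.075. Of all 17002 genes tested, 8439 were below 0. In neither family was a gene called, and the smallest edgeR adjusted p of a mitochondrial one was 0.214. An unadjusted edgeR p under 0.05 occurred in 7 of the 77, against 10.3% of all genes tested. The cytosolic median itself was -0.044 without Control 4 and -0.02 without DAAO 3. The difference between the families was not tested.

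Leaving out Controls 2 and 6, the libraries with the highest mitochondrial share of counts (7.44 and 7.65% against 3.32 to 5.13% elsewhere), changed the count. Then 3 of 81 ribosomal protein genes were called by edgeR: Rpl28 (log2 fold change 0.83, adjusted p = 0.0109), Rps29 (0.84, adjusted p = 0.0218) and Rplp2 (0.71, adjusted p = 0.0376). The background rose as well, to 3.63% of 17834 genes. In the same fit 40 of 81 had an unadjusted p under 0.05, against 18.8% of all genes, 79 were above 0 and the median was 0.40. Controls 2 and 6 were also the controls with the highest ribosomal protein share (3.36 and 2.18%, against 1.07 to 2.06% in the other controls). Leaving them out lowers the family's control level by itself, so these counts are no separate sign of a difference. Rpl28 and Rps29 were named after their values were seen. In all 12 libraries Rpl28 had 138.4, 364.1, 168.0, 112.0, 81.1 and 274.8 CPM in Controls 1 to 6 and 200.2 to 255.4 in DAAO, so that Controls 2 and 6 were its highest libraries.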

How the data were processed

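Values were raw counts of reads on each gene, as deposited by the authors in 1 table of 12 libraries, and were whole numbers with differing totals. Per the submitters' processing notes, HISAT2 2.0.5, FastQC and DESeq2 1.20.0 were used with GRCm38 (mm10). For the counter, its strand setting and multi-mapping reads, the sources used here give nothing, so counts of genes that overlap on opposite strands are uncertain.

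Genes were filtered by edgeR's filterByExpr (minimum count 10, total 15) and scaled by TMM. DAAO was compared with control by edgeR 4.0.16's robust quasi-likelihood test (R 4.3.3), two-sided, Benjamini-Hochberg adjusted over all genes, threshold 0.05, and the test was tested on simulated data. The SE is the absolute log2 fold change over the square root of F. Levels of genes over libraries are log2 CPM with prior count 2. Alternatives used DESeq2 1.42.0, limma 3.58.1, other scalings and filters, a replicate block, a muscle term and libraries left out; adding copies was chosen after seeing the data, as were the comparisons by coding length and with short and long genes. Coding length is that of the matched GENCODE M21 coding sequence.

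The members and lists were chosen with earlier results of these data known. Named genes were the 6 members with the smallest p in each direction, paralogs with counterparts, stalk proteins, Rpsa, Rps6, Rps19, Rpl5 and Rpl11, the 4 highest and lowest per length, the 4 widest in each group and 2 of each other list; other genes named were chosen after their values were seen. Values of a few single genes are not reported here.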

Additional observations from a re-analysis of the deposited data

Results flagged for a closer look

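In 74 groups of 6 libraries examined (35 named ribosomal protein genes and 2 summed shares, in each group), 9 had a highest library set apart from the rest, by a gap above Dixon's 95% critical value. Chance flags about 1 in 20 groups where genes are chosen without regard to their spread. Some of the named genes were chosen for the widest spread over these same libraries, so that rate does not apply to the 9 flags. These genes also share libraries, so flags in 1 library are not independent.

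Of the 9, 5 lay in DAAO 3. There Rps27a had 359.7 CPM (next 115.5), Rpsa 897.6 CPM (next 646.8), Rpl10 803.4 CPM (next 570.3), Rpl7 699.3 CPM (next 511.7) and Rpl26 589.3 CPM (next 377.2). Rpl7a had 125.7 CPM in DAAO 2 (next 62.5). In controls, Rpl17 had 293.5 CPM in Control 2 (next 87.6), Rpl3l 8.892 CPM in Control 4 (next 2.78) and Rpl24 2.243 CPM in Control 6 (next 0.701).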

How the results depend on the processing

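Ribosomal protein genes called stayed at 0 in all alternatives but 1: without Controls 2 and 6, the controls with the highest ribosomal protein share, it was 3. With each library left out in turn it was 0 to 0. The count of all genes called was 128, against 362 with DESeq2, 307 with limma-voom sample weights, 61 to 322 with each library left out in turn, and 648 without Controls 2 and 6. The members' median log2 fold change of 0.075 ran from -0.044 to 0.284 with each library left out, was 0.236 with sample weights (13 members at an unadjusted p under 0.05) and stayed above 0 under every scaling tried. Whether replicate numbers pair the libraries was not settled. Correlations of same-numbered deviations ran from -0.081 to 0.215. The best-matching DAAO library had the same number for Controls 1, 2 and 4, but not for Controls 3, 5 and 6. The replicate block gave 0 members called, 5 at an unadjusted p under 0.05, a median of 0.139 and 187 genes called. Of 944 values of 35 named members over 27 alternatives, 86, in 20 members, had the other sign from the main value, none of those members being called in the comparison of all libraries. The largest such turn was in Rpl24 (-0.21; 1.331 with sample weights, 0.98 with limma-voom). Rps27a (0.20) was -0.362 without DAAO 3. The causes were not tested. Sparse counts limit Rpl24, Rps10 and Rpl3l.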
